A study of Mus musculus with 9 samples.

Results

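The autophagy and lysosome genes described here are 48 mouse genes of the pathway by which a cell encloses parts of its own cytoplasm and digests them. They were taken by gene symbol from a table of estimated counts and a table of TPM, a level scaled for transcript length and sequencing depth, deposited for the series. All 48 were among the 19454 genes listed, and all 48 passed the filter on low counts that left 14461 genes for testing. Of the 48, 32 belong to the autophagy machinery and 16 are lysosomal enzymes, lysosomal membrane proteins or subunits of the lysosomal proton pump. The cells were haematopoietic stem cells (HSCs) from the bone marrow of wild-type mice, sorted by flow cytometry and sequenced by a low-input polyA RNA protocol. In the inhibition plus spermidine group, the mPFC and PAG brain regions were silenced chemogenetically, meaning through a designed receptor that answers to a drug, and the mice also received a spermidine supplement. Mice of the inhibition group had the same silencing with no supplement, and mice of the control group are labelled Ctrl only. Each group has 3 libraries, and the series' title places them in work on how psychological stress and spermidine from gut bacteria bear on the ageing of HSCs. The receptor's promoter, the drug, the spermidine dose, the animals' age and sex and the number of animals behind a library are not given in the sources used here. The p-values therefore measure the spread between these libraries, which may be technical.

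Autophagy starts when the ULK1 kinase complex and then a lipid kinase complex built on beclin 1 mark a membrane that grows into a double-walled sac, the autophagosome. Enzymes related to ubiquitin ligases fix proteins of the ATG8 family (LC3 and GABARAP) to that membrane, cargo receptors bind both ATG8 and the material to be removed, and the sac fuses with a lysosome, where cathepsins and glycosidases work in the acid made by the V-ATPase. In HSCs autophagy is known for clearing mitochondria and for holding the cells in a quiet metabolic state, and spermidine is widely used to induce it. Transcript levels do not measure how much material passes through the pathway.

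The libraries held 16096276 to 25360256 counts each and fell into their 3 labelled groups, with correlations of log2 expression across genes of 0.995 to 0.996 within groups and 0.915 to 0.981 between them. Some stem cell markers in the control libraries went against their HSC label, and others did not. Procr, a surface marker of HSCs, averaged 7.59, 4.10 and 0.125 CPM (counts scaled to the size of the library) in inhibition plus spermidine, inhibition and control libraries. Hlf, a transcription factor of HSCs, averaged 37.6, 22.3 and 2.50 CPM in the same order of groups. Slamf1 and Gata2, also stem cell markers, ran the other way, at 13.8, 17.6 and 105 CPM and 14.5, 9.54 and 56.4 CPM. Over the whole list of 12 stem cell markers, 6 were higher and 5 lower after inhibition, and 8 were higher and 3 lower with inhibition plus spermidine against control. Opposite to Procr and Hlf, the erythroid carbonic anhydrase Car1 averaged 26.0, 29.7 and 1597 CPM, and the platelet chemokine Pf4 97.3, 104 and 2673 CPM. The erythroid markers did not all run that way, since 4 of 9 tested genes were higher after inhibition and 5 lower, and the globin Hba-a1 averaged 78.1, 177 and 23.5 CPM. Neutrophil granule markers held 2.63%, 6.02% and 0.607% of counts in the same order of groups. Of the 14 listed, 14 were lower with spermidine against inhibition. Every comparison below, that between the 2 inhibition groups included, is therefore one between libraries whose marker genes for other blood lineages also differ. In bulk RNA fewer cells of a type and less RNA per cell cannot be told apart.

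Many lysosomal genes are known to carry the letters CACGTG close to their start, the core of the element bound by the transcription factor TFEB and its relatives. RefSeq promoter windows (GRCm38.p6, from 250 bases before to 50 after the start) matched 40 of the 48 members, and CACGTG, which reads the same on both strands, lay in the windows of 8 of 14 lysosomal members and of 3 of 26 machinery members. The share among all tested genes with a window of the same length was 11.1% (1211 of 10906). The contrast was not seen on the wider pathway list used further on. There CACGTG lay in 6 of 22 other machinery genes with a window and 7 of 25 other hydrolases. It lay in 3 of 19 other lysosomal membrane genes and 2 of 10 other V-ATPase genes. The longer form TCACGTGA, which contains CACGTG, lay in 5 of 14 lysosomal and 0 of 26 machinery members, against 2.00% of tested genes. The 5 lysosomal members were Ctsa, Ctsd, Mcoln1, Atp6v0d1 and Atp6v1a. On the wider list TCACGTGA lay in 3 of 22 other machinery genes and 1 of 25 other hydrolases. It lay in 3 of 19 other lysosomal membrane genes and 1 of 10 other V-ATPase genes. The 3 machinery members with CACGTG were Atg5, Atg7 and Atg14. Below are the windows of Lamp1, with 4 matches, of Mcoln1, with 2, and of Atp6v0d1, with 1, followed by those of Ctss and Optn, which had the largest rise among lysosomal members and the largest fall among all members after inhibition and hold no match. Capitals mark CACGTG.
Lamp1, chr8:13158911-13159210, plus strand: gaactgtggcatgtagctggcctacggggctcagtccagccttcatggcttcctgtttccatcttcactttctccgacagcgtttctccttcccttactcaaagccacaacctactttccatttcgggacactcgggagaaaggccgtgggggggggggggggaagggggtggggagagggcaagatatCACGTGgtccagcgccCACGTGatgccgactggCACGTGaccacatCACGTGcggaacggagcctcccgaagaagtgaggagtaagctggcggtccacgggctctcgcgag
Mcoln1, chr8:3500269-3500568, plus strand: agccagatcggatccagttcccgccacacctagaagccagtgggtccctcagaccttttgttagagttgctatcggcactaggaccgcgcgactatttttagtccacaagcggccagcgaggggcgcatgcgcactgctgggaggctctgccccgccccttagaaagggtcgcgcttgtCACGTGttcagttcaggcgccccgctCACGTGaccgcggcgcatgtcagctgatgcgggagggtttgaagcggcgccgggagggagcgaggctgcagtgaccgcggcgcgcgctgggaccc
Atp6v0d1, chr8:105566015-105566314, minus strand: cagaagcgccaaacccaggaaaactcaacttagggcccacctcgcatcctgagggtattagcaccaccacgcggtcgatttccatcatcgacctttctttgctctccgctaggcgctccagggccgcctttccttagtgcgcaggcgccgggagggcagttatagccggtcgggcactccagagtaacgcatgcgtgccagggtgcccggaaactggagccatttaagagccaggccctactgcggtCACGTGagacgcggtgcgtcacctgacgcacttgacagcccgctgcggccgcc
Ctss, chr3:95526536-95526835, plus strand: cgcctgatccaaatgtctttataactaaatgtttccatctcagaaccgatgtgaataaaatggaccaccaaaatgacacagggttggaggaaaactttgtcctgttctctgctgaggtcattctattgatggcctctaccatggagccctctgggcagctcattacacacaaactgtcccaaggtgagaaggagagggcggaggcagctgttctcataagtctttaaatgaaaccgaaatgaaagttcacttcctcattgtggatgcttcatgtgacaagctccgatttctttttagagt
Optn, chr2:5064068-5064367, minus strand: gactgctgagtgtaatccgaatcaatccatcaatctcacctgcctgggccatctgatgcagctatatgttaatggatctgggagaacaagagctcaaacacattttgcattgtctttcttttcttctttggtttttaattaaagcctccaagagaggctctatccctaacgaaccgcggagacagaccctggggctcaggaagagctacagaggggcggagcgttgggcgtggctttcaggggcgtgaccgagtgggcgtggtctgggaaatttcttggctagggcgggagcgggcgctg
In Lamp1 the matches began 61, 45, 28 and 15 bases before the start, in Mcoln1 71 and 45 bases before it and in Atp6v0d1 3 bases before it. A match is only a run of letters, and no binding was measured in these samples. Of the lysosomal members with a match, Lamp1, Ctsd, Atp6v0d1 and Atp6v1a rose after inhibition. Ctsa, Ctsl and Gaa also held a match and fell, and Mcoln1 did not pass the test. Lamp2, Ctss, Ctsz, Gusb, Hexa and Neu1 had a window without a match, and all rose. A link between the matches and these differences was not tested.

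After inhibition, lysosomal genes were mostly higher than in control libraries and the machinery was split. Of the 16 lysosomal members 12 rose, 3 fell and 1 did not pass the test, and the median log2 fold change was 0.46, whereas of the 32 machinery members 12 rose, 12 fell and 8 did not pass, with a median of -0.067. In this comparison 72.4% of all tested genes were called, 36.2% higher and 36.1% lower, with a median of 0.021, so a call by itself sets no member apart. The lysosomal median stood 0.44 above that of all genes. The direction of the machinery median depended on the scale, since limma on log2(TPM + 1) gave 0.14. For 39 of the 48 members no library of one group fell within the range of the other, against 74.5% of all tested genes. At least 2-fold changes were called for 6 members that rose (Atg12, Atg101, Lamp2, Ctsb, Ctss and Atp6v1a) and 3 that fell (Optn, Atg2a and Atg16l1), where 29.0% of all tested genes reached that size.

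With spermidine added to inhibition, most of the lysosomal members were lower than with inhibition alone. Neutrophil granule markers were lower in the same comparison, and their part in this difference was not tested. Of the 16 lysosomal members 0 rose, 13 fell and 3 missed the threshold, and their median log2 fold change was -0.36, whereas 10 machinery members rose, 10 fell and 12 did not pass, with a median of 0.046. All tested genes had 58.1% called, 29.1% higher and 28.9% lower, and a median of 0.027. None of the 48 members was called at 2-fold or more, against 12.7% of all tested genes. No library of one group fell within the range of the other for 33 of the 48 members, against 62.8% of all tested genes. This comparison moved with the scaling: with total counts in place of TMM factors the median of all genes shifted to 0.29, and the lysosomal members became 2 higher and 7 lower (median -0.095) and the machinery 18 higher and 1 lower (median 0.31). Relative to the median gene the lysosomal median was -0.38 under both of these scalings, which shift all genes alike, -0.25 on log2(TPM + 1) and -0.18 on that scale with no filter. On log2(TPM + 1) 2 lysosomal members were higher and 6 lower, and 0 machinery members lower. Lamp2, Ctsb, Ctss, Ctsz, Hexa and Neu1 were called lower on all 3 scales.

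Set against control, the inhibition plus spermidine libraries had 7 lysosomal members higher, 6 lower and 3 not past the test (median 0.15), and 15 machinery members higher, 13 lower and 4 not past it (median 0.041). Of all tested genes 78.1% were called, 41.0% higher and 37.1% lower, with a median of 0.060. With total-count scaling the lysosomal members became 11 higher and 3 lower, the machinery members called lower numbered 7, and the median of all genes was 0.32. On log2(TPM + 1) 13 lysosomal members were higher and 2 lower, with a median of 0.50, and the machinery had 5 members lower and a median of 0.46. The comparisons share libraries, so their values are given side by side and not as separate lines of evidence.

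**Figure D1:**
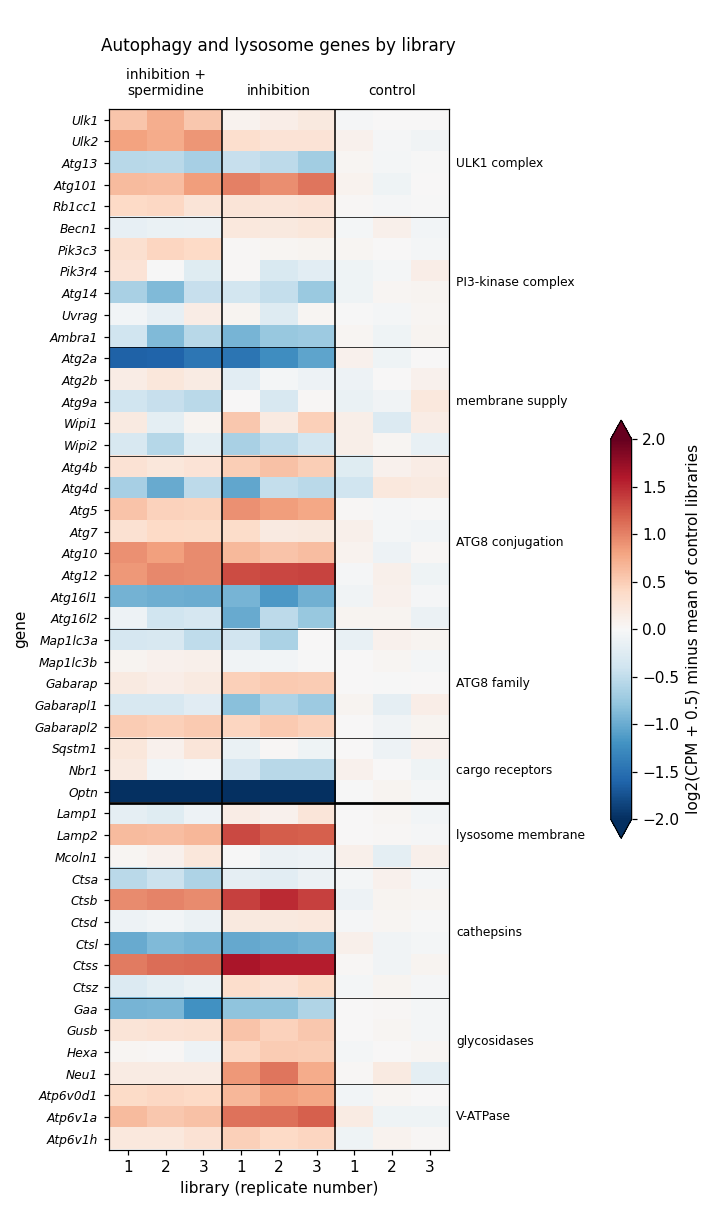
Each row is a gene and each column a library, and colour gives log2(CPM + 0.5) minus the mean of the 3 control libraries for that gene. The heavy line separates the 32 machinery genes from the 16 lysosomal genes, and the Optn row is the darkest blue in both inhibition groups.

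The ULK1 complex, which starts autophagy, had 3 of 5 members higher after inhibition and 1 lower. Atg101, which steadies the complex, had 19.9, 18.9 and 20.9 CPM in inhibition libraries, against 10.1, 9.06 and 9.70 CPM in control libraries, with no overlap. Its log2 fold change was 1.04 (SE 0.080, adjusted p = 3.54e-09). With spermidine it had 15.2, 15.0 and 17.5 CPM, each under every inhibition library, a difference of -0.33 (SE 0.072, adjusted p = 0.00103) that was not called with total-count scaling (adjusted p = 0.424) and stood at 0.0095 on log2(TPM + 1). The kinases Ulk1 and Ulk2 differed in the other direction between those groups. Ulk1 had 15.2, 17.2 and 14.9 CPM in inhibition plus spermidine libraries, against 10.6, 11.1 and 11.7 CPM in inhibition libraries. Ulk2 had 15.8, 15.1 and 16.8 CPM, against 11.2, 10.8 and 10.8 CPM in the same groups. Neither gene's groups overlapped, and both rose, by 0.50 (SE 0.074, adjusted p = 2.79e-05) for Ulk1 and 0.54 (SE 0.071, adjusted p = 8.37e-06) for Ulk2. In control libraries Ulk1 averaged 10.2 ± 0.177 CPM and did not pass the test against inhibition, while Ulk2 averaged 8.85 ± 0.546 CPM and was higher after inhibition by 0.31 (SE 0.080, adjusted p = 0.00252), a call lost on log2(TPM + 1) (adjusted p = 0.530). Atg13, the subunit through which nutrient signals reach the complex, was lower after inhibition than in control. It averaged 4.41 ± 0.231, 4.52 ± 0.419 and 6.89 ± 0.198 CPM in inhibition plus spermidine, inhibition and control libraries (SD, n = 3 each). Rb1cc1, the complex's scaffold, was higher after inhibition by 0.26 (SE 0.061, adjusted p = 9.29e-04).

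In the beclin 1 lipid kinase complex 1 of 6 members rose after inhibition and 2 fell. Becn1, which encodes beclin 1, had 40.0, 40.9 and 41.1 CPM in inhibition plus spermidine libraries and 51.7, 51.1 and 52.6 CPM in inhibition libraries, against 43.4, 47.9 and 43.1 CPM in control libraries. With TMM factors the inhibition plus spermidine libraries lay under all libraries of the other 2 groups. Against control, Becn1 turned higher with spermidine under total-count scaling (0.12, adjusted p = 0.0259) and on log2(TPM + 1) (0.27, adjusted p = 0.0403). Its log2 fold change was 0.21 for inhibition against control and -0.35 (SE 0.045, adjusted p = 5.97e-06) for spermidine against inhibition, and the second difference was not called with total-count scaling (adjusted p = 0.0988). Atg14, which directs the complex to autophagosomes, and Ambra1, a regulator of beclin 1, both fell after inhibition. Atg14 averaged 3.42 ± 0.520 CPM in inhibition libraries and 5.12 ± 0.286 CPM in control libraries, and Ambra1 2.53 ± 0.226 and 4.77 ± 0.279 CPM (SD, n = 3 each). The log2 fold changes were -0.59 (SE 0.15, adjusted p = 0.00163) for Atg14 and -0.90 (SE 0.16, adjusted p = 6.25e-05) for Ambra1. The catalytic subunit Pik3c3 rose with spermidine, to 19.2 ± 0.734 CPM against 15.0 ± 0.173 CPM with inhibition alone, a difference of 0.35 (SE 0.060, adjusted p = 1.06e-04). Pik3r4, its regulatory partner, and Uvrag, the subunit of a form that acts late in the pathway, passed the test in no comparison, with ranges over the 9 libraries of 3.12 to 4.88 CPM for Pik3r4 and 8.56 to 11.6 CPM for Uvrag.

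Among the genes that bring lipid to the growing membrane, Atg2a changed most. It encodes a lipid transfer protein and lies at chr19:6241668-6262335, plus strand (mm10). Inhibition plus spermidine libraries had 3.55, 3.56 and 4.04 CPM and inhibition libraries 3.99, 4.74 and 5.45 CPM, against 12.6, 11.2 and 11.9 CPM in control libraries. Every library of both inhibition groups was lower than every control library. The log2 fold change was -1.32 (SE 0.11, adjusted p = 6.89e-09) for inhibition against control. Between the 2 inhibition groups the libraries overlapped, and the call there was lost with total-count scaling and without inhibition replicate 3 or inhibition plus spermidine replicate 1 or 2 (adjusted p = 0.102, 0.0595 and 0.0579). Its paralogue Atg2b did not pass the test after inhibition, at 10.6 ± 0.670 CPM against 11.6 ± 0.799 CPM in control libraries, and rose with spermidine by 0.30 (SE 0.076, adjusted p = 0.00305). Wipi2, which reads the lipid made by the beclin 1 complex, fell after inhibition, with a log2 fold change of -0.52 (SE 0.11, adjusted p = 3.70e-04), and the call was lost on log2(TPM + 1) (adjusted p = 0.0748). Wipi1, a relative of Wipi2, stood at 1.94, 2.70 and 1.93 CPM in inhibition plus spermidine, inhibition and control libraries, and both of its calls were lost when single libraries were left out, with adjusted p up to 0.223 without control replicate 2 and 0.184 without inhibition plus spermidine replicate 2. Atg9a, the membrane protein of the vesicles that seed autophagosomes, was lower with spermidine, with a log2 fold change of -0.40 (SE 0.13, adjusted p = 0.0170), a call lost without inhibition replicate 3 (adjusted p = 0.0726) and with total-count scaling.

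The conjugation enzymes moved in opposite directions after inhibition, 5 of 8 higher and 3 lower. Atg12, the ubiquitin-like protein of the first conjugation step, had 84.6, 90.7 and 89.7 CPM in inhibition plus spermidine libraries and 115, 118 and 119 CPM in inhibition libraries, against 45.3, 49.7 and 43.6 CPM in control libraries. The 3 groups were separate, with inhibition highest and control lowest. Its log2 fold change was 1.34 (SE 0.046, adjusted p = 6.09e-14) for inhibition against control and -0.41 (SE 0.042, adjusted p = 5.40e-07) for spermidine against inhibition, and the second of these was lost on log2(TPM + 1) (adjusted p = 0.221). Atg5, to which ATG12 is joined, had the same order of groups, at 40.9 ± 1.91, 52.2 ± 2.41 and 28.9 ± 0.451 CPM in inhibition plus spermidine, inhibition and control libraries (SD, n = 3 each). It rose after inhibition by 0.85 (SE 0.050, adjusted p = 9.49e-11) and fell with spermidine by 0.35 on the log2 scale, which was not called with total-count scaling (adjusted p = 0.117). Atg10, the enzyme that carries ATG12 to ATG5, was highest with spermidine instead. It had 39.1, 36.5 and 40.0 CPM in inhibition plus spermidine libraries and 32.3, 30.7 and 31.5 CPM in inhibition libraries, against 21.5, 19.1 and 20.8 CPM in control libraries. Each step was free of overlap and called, at 0.29 (SE 0.053, adjusted p = 2.08e-04) for spermidine against inhibition and 0.62 (SE 0.059, adjusted p = 5.08e-08) for inhibition against control.

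Atg16l1, which anchors the ATG12-ATG5 pair to the membrane, fell. It lies at chr1:87755870-87792428, plus strand (mm10). Inhibition plus spermidine libraries had 8.75, 8.57 and 8.47 CPM and inhibition libraries 8.85, 7.52 and 8.65 CPM, against 16.4, 18.4 and 17.0 CPM in control libraries. The 2 inhibition groups overlapped each other and both stood under control, with a log2 fold change of -1.06 (SE 0.080, adjusted p = 2.86e-09) for inhibition against control. Its relative Atg16l2 also fell after inhibition, with a log2 fold change of -0.80 (SE 0.14, adjusted p = 7.46e-05), and was higher again with spermidine by 0.51 (SE 0.14, adjusted p = 0.00553). The second call was lost on log2(TPM + 1) (adjusted p = 0.0716). Of the proteases that trim ATG8 proteins, Atg4b rose after inhibition by 0.54 (SE 0.099, adjusted p = 1.14e-04) and Atg4d fell by 0.77 on the log2 scale (adjusted p = 0.00288). Atg7, the activating enzyme of both conjugation routes, averaged 5.24 ± 0.419 CPM in inhibition libraries and 4.33 ± 0.299 CPM in control libraries, and its call was lost without inhibition replicate 1 or 3 or control replicate 2 or 3 (adjusted p = 0.148, 0.0644, 0.135 and 0.145).

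**Figure D2:**
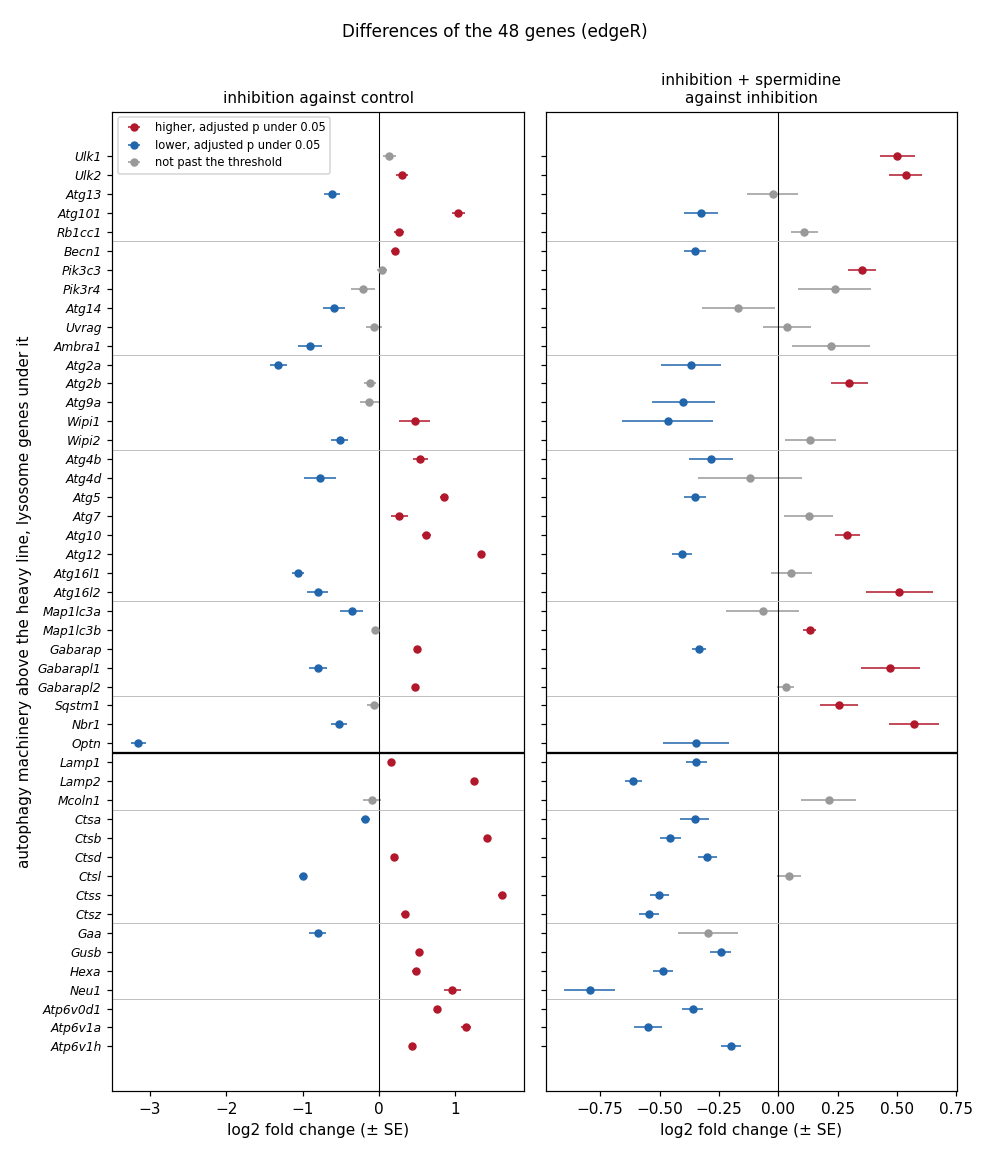
Points give the log2 fold change of each of the 48 genes from edgeR and bars its SE, for inhibition against control on the left and inhibition plus spermidine against inhibition on the right. Under the heavy line, 12 of 16 lysosomal genes are higher on the left and 13 of 16 lower on the right, while machinery genes lie on both sides of 0 in both panels.

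The most abundant transcripts of the 48 in every group encode 3 members of the ATG8 family. Per transcript length, the order of levels began with Map1lc3b, Gabarap, Gabarapl2 and the cathepsin Ctsz in all 3 groups, and neighbours in that order did not overlap. Map1lc3b encodes LC3B, the ATG8 protein most used to mark autophagosomes, and lies at chr8:121590361-121598760, plus strand (mm10). By counts it had 1131, 1147 and 1180.0 CPM in inhibition libraries, against 1199, 1220.2 and 1159 CPM in control libraries, and the groups overlapped. The count test gave a log2 fold change of -0.05 (SE 0.028, adjusted p = 0.125). By deposited TPM the same libraries stood apart, at 829, 818 and 834 TPM with inhibition and 454, 480.0 and 466 TPM in control, a difference of 0.82 on the log2(TPM + 1) scale. The transcript length implied by the ratio of counts to TPM was shorter in inhibition libraries by 0.79 on the log2 scale, beyond a within-group SD of at most 0.033. With spermidine Map1lc3b had 1241, 1266 and 1282 CPM, all above the inhibition libraries, and rose by 0.13 (SE 0.028, adjusted p = 7.97e-04).

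Gabarap, which works in the closing and later steps of the autophagosome, had 139, 135 and 139.9 CPM in inhibition plus spermidine libraries and 171, 177 and 174 CPM in inhibition libraries, against 124, 122 and 123 CPM in control libraries. The inhibition plus spermidine libraries lay between the other groups and clear of both. It rose after inhibition by 0.50 (SE 0.031, adjusted p = 1.94e-10) and fell with spermidine by 0.33 on the log2 scale, a call lost with total-count scaling (adjusted p = 0.0542). Gabarapl2 rose after inhibition by 0.48 (SE 0.037, adjusted p = 4.78e-09) and averaged 136 ± 2.07 and 133 ± 4.13 CPM in inhibition plus spermidine and inhibition libraries, against 95.9 ± 4.02 CPM in control libraries (SD, n = 3 each). The rarer Gabarapl1 fell after inhibition by 0.80 on the log2 scale (adjusted p = 1.96e-05) and was higher with spermidine by 0.47 (SE 0.12, adjusted p = 0.00386). Map1lc3a averaged 4.60 ± 1.16 CPM in inhibition and 5.82 ± 0.535 CPM in control libraries, and its call was lost without inhibition replicate 1 or 2 or control replicate 2 or 3 (adjusted p = 0.0960, 0.257, 0.116 and 0.0946).

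Among cargo receptors 2 of 3 fell after inhibition, and Optn had the largest difference of all 48 members. Optn encodes optineurin, a receptor for damaged mitochondria and bacteria, and lies at chr2:5020642-5064051, minus strand (mm10). Inhibition plus spermidine libraries had 3.39, 2.82 and 3.93 CPM and inhibition libraries 5.04, 4.20 and 3.60 CPM, against 37.4, 39.1 and 36.6 CPM in control libraries. Every control library was at or above 36.6 CPM and every other library at or under 5.04 CPM. The log2 fold change was -3.15 (SE 0.097, adjusted p = 1.36e-14) for inhibition and -3.50 (SE 0.098, adjusted p = 4.78e-15) for inhibition plus spermidine, each against control. The smaller difference between the 2 inhibition groups overlapped, and its call was lost without inhibition replicate 1 or 2 or inhibition plus spermidine replicate 1 or 2 (adjusted p = 0.119, 0.0730, 0.0687 and 0.190). Nbr1, a receptor for protein aggregates and peroxisomes, had 9.07, 7.59 and 7.80 CPM in inhibition plus spermidine libraries and 6.15, 5.23 and 5.25 CPM in inhibition libraries, against 8.43, 7.94 and 7.38 CPM in control libraries. It fell after inhibition by 0.52 on the log2 scale (adjusted p = 3.87e-04) and rose with spermidine by 0.57 (SE 0.10, adjusted p = 2.15e-04). On log2(TPM + 1) the first of these differences was 0.28 in the other direction and not called. Sqstm1, which encodes p62, the best known receptor for ubiquitin-tagged cargo, averaged 10.6 ± 0.625 CPM with inhibition and 11.2 ± 0.756 CPM in control by counts, with a log2 fold change of -0.07 that did not pass, but 7.22 ± 0.488 and 4.98 ± 0.708 TPM, a called difference of 0.46 on log2(TPM + 1). With spermidine it averaged 12.8 ± 0.787 CPM and was called higher than with inhibition alone (adjusted p = 0.0120), a call lost without inhibition replicate 1 (adjusted p = 0.0805).

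**Figure D3:**
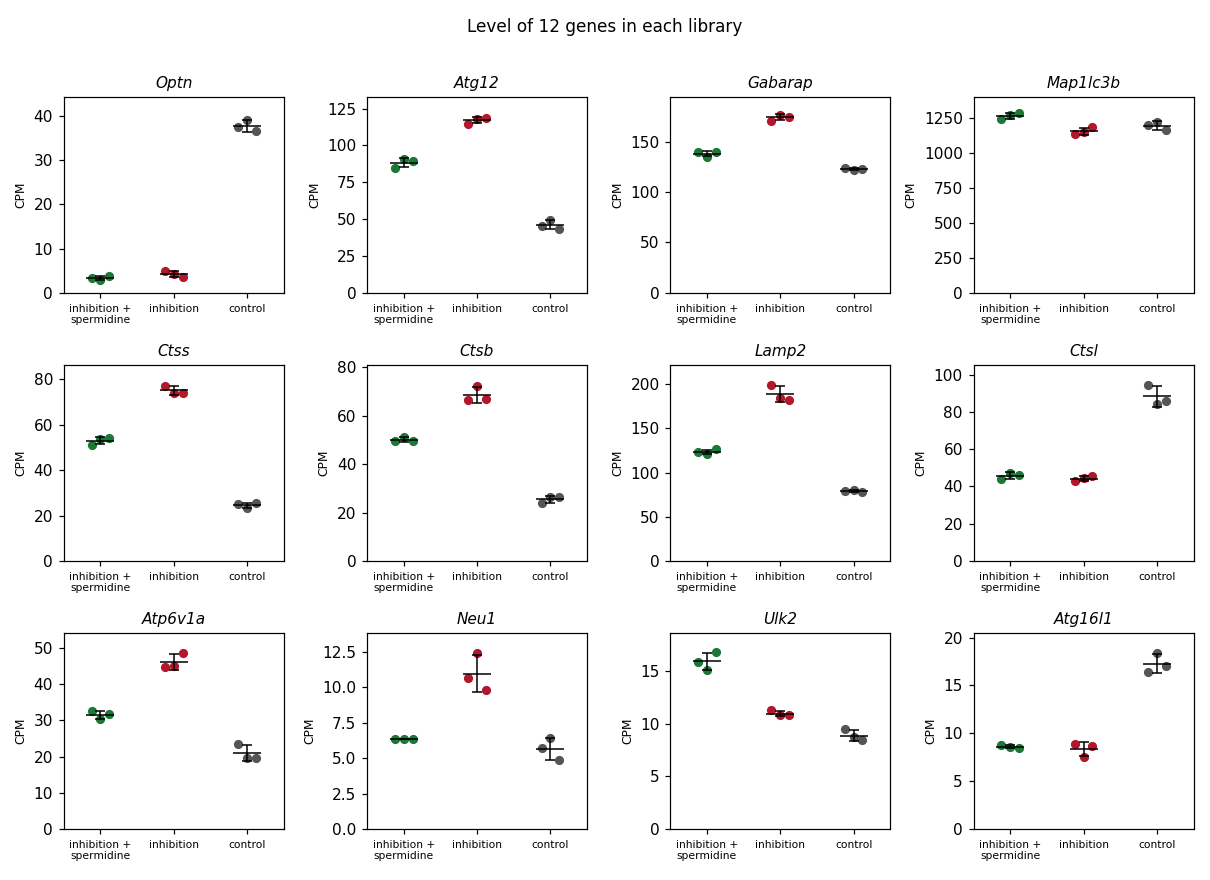
Points are single libraries in CPM, short lines the group means and bars the SD (n = 3), for 12 of the genes. Ctss, Ctsb, Lamp2, Atg12, Atp6v1a and Neu1 are highest in inhibition libraries, Optn, Ctsl and Atg16l1 are highest in control libraries, and Ulk2 is highest with spermidine.

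Of the lysosomal membrane proteins, Lamp2 differed most. It encodes a heavily glycosylated protein of the lysosome's inner face that is needed for fusion and for chaperone-mediated autophagy, and lies at chrX:38401357-38456454, minus strand (mm10). Inhibition plus spermidine libraries had 123, 121 and 126 CPM and inhibition libraries 199, 185 and 183 CPM, against 79.6, 80.3 and 78.1 CPM in control libraries. The inhibition plus spermidine libraries lay between the 2 other groups with no overlap. The log2 fold change was 1.25 (SE 0.038, adjusted p = 1.10e-14) for inhibition against control and -0.61 (SE 0.036, adjusted p = 5.50e-10) for spermidine against inhibition. Lamp1, its close relative whose window holds 4 CACGTG matches, changed less, at 78.9 ± 3.99, 100.1 ± 5.06 and 89.4 ± 2.91 CPM in inhibition plus spermidine, inhibition and control libraries (SD, n = 3 each). It rose after inhibition by 0.16 (SE 0.045, adjusted p = 0.00397) and fell with spermidine by 0.34 on the log2 scale, a call lost with total-count scaling (adjusted p = 0.0923). Mcoln1, the calcium channel of the lysosome, passed the test in no comparison, at means of 5.15, 4.43 and 4.70 CPM in the same order of groups.

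Cathepsins, the proteases of the lysosome, had 4 of 6 members higher after inhibition and 2 lower, and 5 of 6 lower with spermidine. Ctss, a cysteine protease prominent in antigen-presenting cells, lies at chr3:95526786-95556403, plus strand (mm10). It had 51.1, 53.7 and 54.1 CPM in inhibition plus spermidine libraries and 77.1, 74.0 and 73.9 CPM in inhibition libraries, against 24.9, 23.3 and 25.4 CPM in control libraries. All 3 groups were separate. The log2 fold change was 1.61 (SE 0.046, adjusted p = 4.76e-15) for inhibition against control, -0.50 (SE 0.040, adjusted p = 2.66e-08) for spermidine against inhibition and 1.11 (SE 0.047, adjusted p = 1.09e-12) for inhibition plus spermidine against control. Ctsb, the most widely expressed cysteine cathepsin, had the same order, with 49.6, 51.4 and 49.5 CPM in inhibition plus spermidine libraries, 66.6, 72.5 and 66.9 CPM in inhibition libraries and 23.9, 26.5 and 26.4 CPM in control libraries. It rose after inhibition by 1.42 (SE 0.051, adjusted p = 1.07e-13) and fell with spermidine by 0.45 on the log2 scale. Ctsz had the highest TPM of these 6 cathepsins. It had 79.8, 84.1 and 88.7 CPM with spermidine, against 124, 118 and 126 CPM with inhibition alone. The fall was 0.55 on the log2 scale (adjusted p = 1.76e-08). Control libraries had 94.0, 101 and 95.8 CPM, under every inhibition library.

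Ctsl, another cysteine cathepsin, at chr13:64359337-64370890, minus strand (mm10), went against the rest. It had 43.7, 47.4 and 46.0 CPM in inhibition plus spermidine libraries and 42.9, 44.3 and 45.4 CPM in inhibition libraries, against 94.6, 84.1 and 86.0 CPM in control libraries. Both inhibition groups stood far under control and overlapped each other, with a log2 fold change of -0.99 (SE 0.049, adjusted p = 7.95e-12) for inhibition against control. The fall was not seen in TPM, where the groups held 11.3, 13.0 and 12.5 TPM with spermidine, 8.37, 8.85 and 5.82 TPM with inhibition and 8.76, 7.83 and 7.90 TPM in control. On log2(TPM + 1) inhibition against control was -0.095 (adjusted p = 0.508) and inhibition plus spermidine against control was 0.54 (adjusted p = 0.00299). The length implied by counts and TPM was shorter by 0.80 on the log2 scale with inhibition and by 1.14 with spermidine, each relative to control, with a within-group SD of up to 0.34. Of the 48 members, 8 had an implied length that differed by more than 0.5 on the log2 scale in some comparison, the others being Atg2b, Atg7, Atg16l2, Map1lc3b, Sqstm1, Nbr1 and Ctsb. The share of all genes past that mark was not computed. For Nbr1 and Atg16l2 the within-group SD reached 0.52 and 0.51. Their differences were -0.88 for inhibition against control and 0.53 for inhibition plus spermidine against control, so these ratios were noisy. Ctsd, the aspartic cathepsin, averaged 41.5 ± 0.925, 51.1 ± 0.451 and 44.3 ± 1.21 CPM in inhibition plus spermidine, inhibition and control libraries. Ctsa, which shields neuraminidase, averaged 20.7 ± 1.32, 26.6 ± 0.889 and 30.0 ± 1.62 CPM, lowest with spermidine, and its call after inhibition was lost without control replicate 2 (adjusted p = 0.0576).

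**Figure D4:**
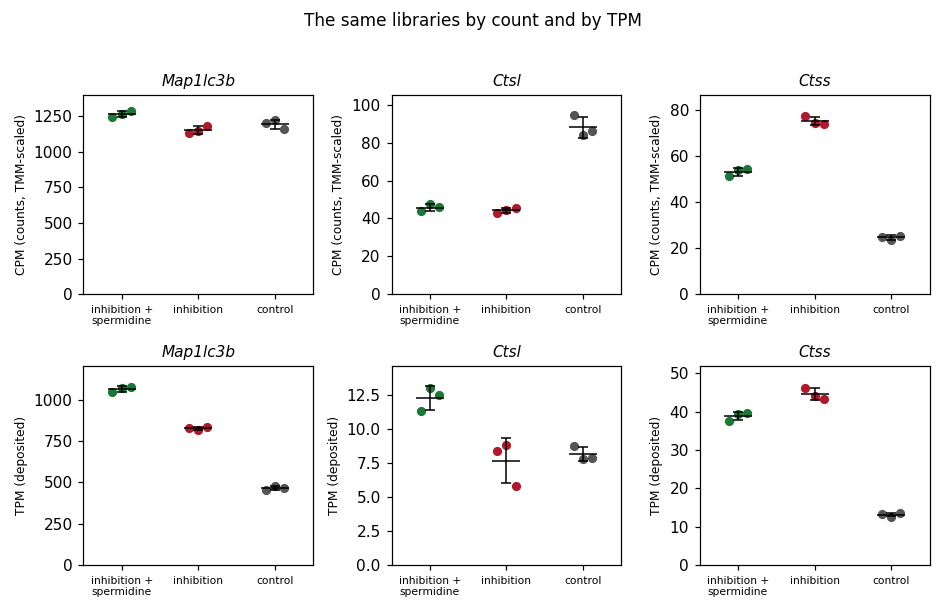
Points are libraries, short lines means and bars the SD (n = 3), for counts scaled by TMM factors in the upper row and for deposited TPM in the lower row. Map1lc3b overlaps between inhibition and control by counts and separates by TPM, Ctsl does the reverse, and Ctss keeps its order on both.

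Glycosidases, which strip sugars from lipids and proteins, had 3 of 4 members higher after inhibition and 3 of 4 lower with spermidine. Neu1, the sialidase, had 6.37, 6.34 and 6.36 CPM in inhibition plus spermidine libraries and 10.7, 12.4 and 9.80 CPM in inhibition libraries, against 5.70, 6.44 and 4.85 CPM in control libraries. Inhibition libraries were above all others, and the spermidine and control libraries overlapped. Its log2 fold change was 0.96 (SE 0.11, adjusted p = 7.94e-07) for inhibition against control and -0.79 (SE 0.11, adjusted p = 9.26e-06) for spermidine against inhibition, the largest of the 48 members in that comparison. Hexa, a subunit of the enzyme that degrades gangliosides, had 56.3, 55.6 and 51.1 CPM with spermidine, against 72.9, 78.3 and 77.3 CPM with inhibition alone, and 53.4, 54.7 and 55.8 CPM in control libraries. It fell with spermidine by 0.49 on the log2 scale (adjusted p = 8.28e-08) to a range that overlapped control. Gusb, the beta-glucuronidase, rose after inhibition by 0.53 (SE 0.047, adjusted p = 2.15e-08). Its fall with spermidine turned to 0.019 with total-count scaling. Gaa, which breaks down glycogen, went the other way, at 4.03 ± 0.366 CPM with inhibition against 7.03 ± 0.148 CPM in control, a fall of 0.80 on the log2 scale (adjusted p = 8.39e-06).

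All 3 V-ATPase subunits on the list rose after inhibition and were lower with spermidine. Atp6v1a, the subunit that splits ATP, had 32.6, 30.4 and 31.7 CPM in inhibition plus spermidine libraries and 44.7, 45.1 and 48.5 CPM in inhibition libraries, against 23.4, 19.7 and 19.6 CPM in control libraries. The groups did not overlap. Its log2 fold change was 1.15 (SE 0.064, adjusted p = 4.71e-11) after inhibition and -0.55 (SE 0.059, adjusted p = 7.66e-07) with spermidine, and the second call was lost on log2(TPM + 1) (adjusted p = 0.476). Atp6v0d1, a membrane-sector subunit, averaged 53.4 ± 0.581, 68.4 ± 3.85 and 40.3 ± 1.23 CPM in inhibition plus spermidine, inhibition and control libraries, and Atp6v1h, a regulatory subunit, 69.9 ± 2.27, 80.2 ± 2.18 and 59.2 ± 3.06 CPM. They rose after inhibition by 0.77 (SE 0.046, adjusted p = 1.17e-10) and 0.43 (SE 0.043, adjusted p = 1.01e-07). With total-count scaling neither was called between the 2 inhibition groups, at -0.099 for Atp6v0d1 (adjusted p = 0.0649) and 0.063 for Atp6v1h (adjusted p = 0.211).

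Other genes of the pathway, 130 on a wider list of which 129 were tested, gave 64 higher, 38 lower and 27 not past the test after inhibition (median log2 fold change 0.17), and 33 higher, 54 lower and 42 not past it with spermidine against inhibition (median -0.11). In these comparisons 79.1% and 67.4% of the list were called, against 72.4% and 58.1% of all tested genes, so a call sets few of them apart. The remaining 14 V-ATPase genes had 10 higher and 2 lower after inhibition, and 0 higher and 12 lower with spermidine, or 3 higher and 6 lower with total-count scaling. Other hydrolases had 17 of 33 higher and 6 lower after inhibition, and other lysosomal membrane genes 15 of 22 higher and 6 lower. Other machinery genes were split after inhibition, 10 of 26 higher and 11 lower. With spermidine against inhibition, other hydrolases had 10 higher and 14 lower, and other lysosomal membrane genes 3 higher and 9 lower. The summed share of counts of the other hydrolases was higher with spermidine, at 0.281% against 0.223% with inhibition alone and 0.129% in control libraries. That share carries no TMM factors. With total-count scaling the median log2 fold change of all genes was itself 0.29 for spermidine against inhibition. With TMM factors the median of the other hydrolases was -0.095. Arl8b, the small GTPase that moves lysosomes outward, had 197, 186 and 193 CPM in inhibition libraries, against 54.6, 56.0 and 56.9 CPM in control libraries, a log2 fold change of 1.78 (SE 0.037, adjusted p = 7.91e-17). Igf2r, the receptor that sorts hydrolases to lysosomes, rose by 1.79 (SE 0.081, adjusted p = 2.97e-12) and Cd68, a lysosomal glycoprotein that is also on the monocyte and macrophage list used further on, by 1.77 (SE 0.040, adjusted p = 2.71e-16). Against the rest of the pump, Atp6v0e2 had 33.5, 35.1 and 36.4 CPM with inhibition, against 299, 292 and 262 CPM in control libraries, and Atp6v0a2 7.04 ± 0.423 CPM against 18.7 ± 1.34 CPM. Their log2 fold changes were -3.02 (SE 0.053, adjusted p = 9.15e-18) and -1.41 (SE 0.085, adjusted p = 1.35e-10). Vps16, a subunit of the tethers for fusion with the lysosome, fell by 1.35 on the log2 scale (adjusted p = 6.25e-10).

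Among genes of the wider list that averaged at least 5 CPM and whose groups did not overlap, the largest rises with spermidine against inhibition were in Foxo3, a transcription factor that drives autophagy genes in HSCs, in the cathepsin Ctso and in Vps39, a tether subunit. Foxo3 had 324, 316 and 321 CPM in inhibition plus spermidine libraries, against 202, 209 and 202 CPM in inhibition libraries, with control libraries lower still at 144, 130.1 and 139 CPM. The log2 fold change was 0.65 (SE 0.034, adjusted p = 1.50e-10) for spermidine against inhibition. Outside those limits fitted log2 fold changes reached 0.90 and -1.40. Within them the largest falls were in Ctsh, an aminopeptidase cathepsin, at -0.86 (SE 0.055, adjusted p = 1.51e-09), in Tmem41b, a lipid scramblase of autophagosome formation, at -0.82 (SE 0.053, adjusted p = 1.56e-09), and in Gla, the alpha-galactosidase, at -0.81 (SE 0.057, adjusted p = 4.71e-09). Under the same limits, inhibition plus spermidine libraries were highest over control in Arl8b, Igf2r and the receptor for endoplasmic reticulum Retreg1, which had a log2 fold change of 1.63 (SE 0.070, adjusted p = 1.53e-12), and lowest in Atp6v0e2, Atp6v0a2 and the lysosomal channel Tpcn1, at -1.49 (SE 0.10, adjusted p = 1.05e-09) for Tpcn1.

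As shares of all counts, the 16 lysosomal members held 0.0856 ± 0.00128% in inhibition plus spermidine libraries, 0.0953 ± 0.000555% in inhibition libraries and 0.0659 ± 0.000842% in control libraries (SD, n = 3 each). Marker genes of neutrophil granules moved in the same order, with 2.57 to 2.68%, 5.95 to 6.08% and 0.598 to 0.611% of counts in those groups, and all 14 of the 14 listed genes were called higher after inhibition and lower with spermidine. Monocyte and macrophage markers held 0.206 to 0.217%, 0.436 to 0.449% and 0.0457 to 0.0479%, with 11 of 13 tested genes higher after inhibition and 10 lower with spermidine. Of their defining genes C1qa stayed at or under 0.676 CPM and Adgre1 at or under 1.35 CPM in every library. Markers of B and plasma cells held 0.204%, 0.450% and 0.00781% on average, although Pax5 had at most 3 counts in any library. All 8 tested genes of that list were higher after inhibition, and 7 were lower with spermidine. T and NK cell markers held 0.119%, 0.183% and 0.124%, mostly through Nkg7, a cytotoxic granule gene that averaged 1026, 1916 and 1311 CPM, while Cd3e had at most 0.391 CPM. Of this list 9 of 9 tested genes were higher after inhibition, 3 were lower and 1 higher with spermidine against inhibition, and 8 were higher and 1 lower with inhibition plus spermidine against control. Megakaryocyte and platelet markers ran the other way, at 0.0164%, 0.0141% and 0.281%, while erythroid markers were split. Their summed share was 0.138%, 0.123% and 0.324%, of which Car1 and Car2 made up most in control libraries, and the globins Hba-a1, Hba-a2 and Hbb-bt were lowest there. Stem cell markers held 0.0497%, 0.0314% and 0.0335%. The part of these cells in the changes of the lysosomal genes, and of platelet and erythroid cells in the fall of Optn, was not tested.

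**Figure D5:**
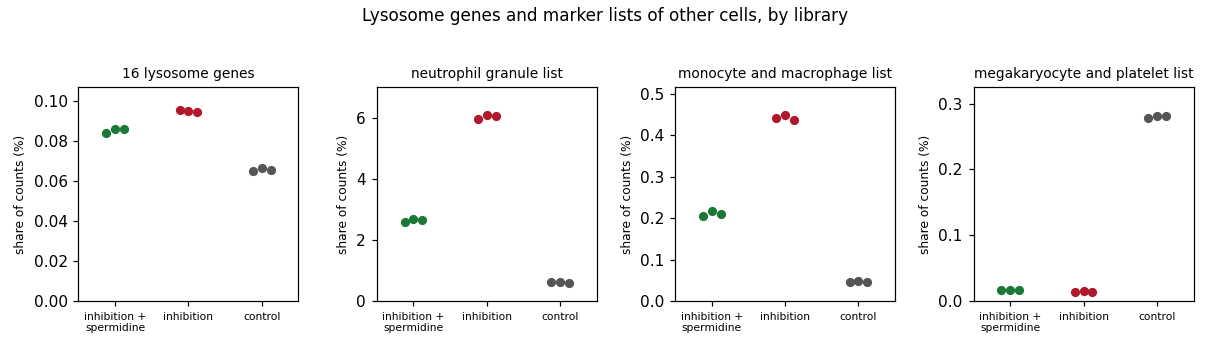
Points are libraries and the vertical axes give the percent of a library's counts in the 16 lysosomal genes and in marker lists of neutrophil granules, monocytes and macrophages, and megakaryocytes and platelets. The lysosomal, neutrophil and monocyte panels are all highest in inhibition libraries, and the megakaryocyte panel is highest in control libraries.

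Summed per transcript length, machinery members held 1525 ± 23.7, 1235 ± 4.11 and 776 ± 13.9 TPM in inhibition plus spermidine, inhibition and control libraries (SD, n = 3 each). Map1lc3b was the greatest part, and without it the sums were 461, 408 and 310 TPM. By counts Map1lc3b was not called between inhibition and control. As shares of counts, not scaled for length, machinery members held 0.221%, 0.179% and 0.169% in the same order of groups. Lysosomal members summed to 339 ± 4.23, 364 ± 5.04 and 223 ± 4.37 TPM. At the low end Ambra1 was last of the 48 in every group, at 0.547 ± 0.107, 0.373 ± 0.0271 and 0.642 ± 0.0224 TPM. The counting is not stated to use strand, so members whose exons overlap another gene are less certain. Among overlapping genes with counts, Cntd1 covers 43.9% of the exonic bases of Becn1, Kri1 19.3% of Atg4d and Mrnip 17.3% of Sqstm1. Fdft1 covers 12.8% of Ctsb and Tmem202 12.8% of Hexa. Cntd1 and Tmem202 had far fewer counts than the member, with means of 20.1 against 928 and 27.1 against 1260. Overlapping genes with no counts listed cover 34.4% of Ctsd and 31.8% of Atg9a, both on the same strand. Others of that kind cover 28.3% of Gabarapl1, 26.8% of Ctsl and 17.6% of Uvrag. Kri1 and Mrnip had more counts than the member, with means of 183 against 64.6 for Atg4d and 393 against 236 for Sqstm1. So did Gskip, with 871 against 242 for Atg2b and 2.8% of its exonic bases, and Fchsd2, with 324 against 102 for Atg16l2 and 0.3%.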

How the data were processed

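Polyadenylated RNA of sorted HSCs was reverse transcribed, enriched by PCR and sequenced, per the labels' protocol. The authors deposited estimated counts per gene, not scaled between libraries, and TPM, scaled for length and depth. Per the submitters' processing notes, the build was mm10 and the tools, with no roles stated, were STAR 2.6.1d, HTSeq 0.10.0, Trim Galore 0.6.2 and edgeR 3.24.3. Of the deposited estimated counts 48.2% were whole to within 1e-06, so the step that made the rest is not known.

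Estimated counts were rounded and tested with edgeR 4.0.16 in R 4.3.3: TMM factors (0.931 to 1.14), the default filter on low counts, a quasi-likelihood fit over all 9 libraries with a mean per group, and Benjamini-Hochberg adjustment over 14461 genes at 0.05. CPM values carry the TMM factors. An exact permutation test of 3 against 3 libraries cannot go below 0.1 and was not used. Replicates were not copies of 1 library, with a mean chi-square per gene of 2.31 to 7.22 between their counts. Alternatives were RLE and total-count scaling, TMM without marker genes of neutrophils and B cells, no filter, DESeq2 1.42.0, limma 3.58.1 on log2 TPM, the compared pair alone, a replicate block and leaving out each library. Coordinates are GENCODE M21 gene bounds on mm10, 1-based. Members, the wider pathway list and the markers were chosen with earlier results of these data known. From the wider list, up to 3 genes a direction with the largest called fold change, no overlap and a mean of at least 5 CPM were named.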

Additional observations from a re-analysis of the deposited data

How the results depend on the processing

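Inhibition against control kept its lysosomal result under every alternative, with 12 members higher when any library was left out and a median of 0.42 to 0.46, but the lysosomal members called lower numbered 1 on log2(TPM + 1), log2(TPM + 0.1) and log2(TPM + 1) with no filter, with medians of 0.55, 0.57 and 0.55. On those 3 scales the machinery median turned to 0.14, 0.18 and 0.070, and all genes called lower numbered 3427 and 3424 with the filter. Map1lc3b (0.82, 0.83 and 0.82), Sqstm1 (0.46, 0.53 and 0.46) and Nbr1 (0.28, 0.42 and 0.28) turned positive there.

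Spermidine against inhibition moved with total-count scaling and on the TPM scales. With total-count scaling all genes called became 7711 higher and 1793 lower, machinery members 18 and 1 with a median of 0.31, and lysosomal members 2 and 7 with a median of -0.095, while Gusb turned to 0.019 and Atp6v1h to 0.063. Without the filter on low counts the lysosomal median was -0.40, and it ran from -0.41, without inhibition replicate 1, to -0.35 when single libraries were left out. On log2(TPM + 1), log2(TPM + 0.1) and log2(TPM + 1) with no filter, all genes called lower numbered 1090, 1068 and 1333 (7997 higher with no filter), machinery members called lower 0, 0 and 0, and lysosomal members 2, 2 and 3 higher and 6, 6 and 6 lower. The machinery medians there were 0.26, 0.33 and 0.21 and the lysosomal medians -0.053, -0.056 and -0.053. On these scales Atg101 turned to 0.0095, 0.010 and 0.0095, Gusb to 0.11, 0.11 and 0.11 and Atp6v1h to 0.098, 0.10 and 0.098.

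Inhibition plus spermidine against control moved on the same scales. With total-count scaling 7 machinery members were lower (median 0.30) and 11 lysosomal members higher and 3 lower (median 0.41), and Becn1 (0.12), Lamp1 (0.082), Ctsd (0.17) and Ctsz (0.058) turned positive. Without the filter the lysosomal median was 0.093. On log2(TPM + 1), log2(TPM + 0.1) and log2(TPM + 1) with no filter, all genes called lower numbered 2255, 2230 and 2918 (9239 higher with no filter), machinery members lower 5, 5 and 4, and lysosomal members 13, 13 and 13 higher and 2, 2 and 2 lower. Machinery medians were 0.46, 0.51 and 0.18 and lysosomal medians 0.50, 0.60 and 0.50. Turned on those scales were Becn1 (0.27, 0.29 and 0.27), Atg2b (-0.041, -0.059 and -0.041), Wipi2 (0.087, 0.11 and 0.087), Atg7 (-0.064, -0.093 and -0.064), Map1lc3a (0.029, 0.034 and 0.029), Gabarapl1 (0.095, 0.12 and 0.095), Lamp1 (0.25, 0.26 and 0.25), Ctsd (0.23, 0.25 and 0.23), Ctsl (0.54, 0.58 and 0.54) and Ctsz (0.20, 0.20 and 0.20).

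Leaving out 1 library ended the call of 4 members for inhibition against control, 6 for spermidine against inhibition and 8 for inhibition plus spermidine against control. DESeq2 ended 15 calls of members over the 3 comparisons. Replicate numbers did not pair the libraries (correlation of residuals -0.036 to 0.065 over 9 pairs), and the replicate block gave lysosomal medians of 0.46, -0.36 and 0.15 in the 3 comparisons, with 5 member calls lost. The causes of these shifts were not tested. Members under about 5 CPM rest on few counts, and a count of 0, with a floor of 3 counts, speaks to counting error alone, since PCR copies of a molecule are counted again.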
